A study of Mus musculus with 9 samples.

Results

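Mt1 and Mt2, the metallothionein genes with rows in the count tables, were followed across the cells of mouse bone marrow. They were taken by symbol and make up 2 of the 15265 genes in the tables, and each had a row in the tables of all 9 libraries; Mt3 and Mt4 had no row. The cells came, unsorted, from the marrow of C57BL/6 mice at 2 to 3 weeks of age, and their RNA was measured by Drop-seq, in which barcoded beads mark single cells in droplets. There were 5 libraries of NG2-cre/Pot1a wt/wt mice (controls) and 4 of NG2-cre/Pot1a fl/fl mice, with 100 barcodes each. As named here, all mice carried the Cre recombinase, though the study's legend for these cells calls the controls wildtype. The promoter of NG2 (gene Cspg4) drives the recombinase in pericytes, and the paper counts most Nestin-GFP positive mesenchymal stem cells of the marrow among the marked cells. Only in the fl/fl mice could it remove Pot1a, which encodes a protein that binds telomeric DNA. The haematopoietic cells described here are therefore not the cells that the recombinase targets. Pot1a held 2 to 10 counts in a control library and 1 to 15 in a Pot1a fl/fl library, and Cspg4 at most 5, so the deletion could not be read from these tables. Which mouse gave which library is not labelled, and the study's legend counts fewer mice in each genotype than there are libraries, so on that count some libraries share a mouse. The p-values below treat libraries as replicates, measure the spread between them and are too small where libraries share a mouse. Mt1 and Mt2 were chosen by their levels across erythroid stages and other lineages in these same cells, so those levels are given as a description without tests.

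Metallothioneins are small cysteine-rich proteins that bind zinc and copper, and they buffer the free metal in the cell. Zinc activates the transcription factor MTF1, which binds metal response elements upstream of Mt1 and Mt2 and raises their transcription, and glucocorticoids and oxidative stress raise it too. Erythroid precursors handle much metal while they make haemoglobin, first as progenitors with little globin and then as erythroblasts that fill with it.

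Mt1 and Mt2 are neighbours on the plus strand of mouse chromosome 8. In GENCODE M21 on GRCm38, the assembly of the mm10 build used by the authors, Mt2 (ENSMUSG00000031762.7) spans 94172664 to 94173568 and Mt1 (ENSMUSG00000031765.8) spans 94179082 to 94180327, with 5513 bp between them. Their transcripts shared 0 stretches of 50 bases, and the longest stretch in common was 20 bases, so reads of such a length would not have been split between them. The 250 bases upstream of each RefSeq start (GRCm38.p6) are shown because they hold the core of the metal response element, searched as TGCACNC and TGCGCNC on both strands, with the matches in capitals. The window of Mt2 is chr8:94172368-94172617 and that of Mt1 is chr8:94178839-94179088, both on the plus strand.

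Mt2: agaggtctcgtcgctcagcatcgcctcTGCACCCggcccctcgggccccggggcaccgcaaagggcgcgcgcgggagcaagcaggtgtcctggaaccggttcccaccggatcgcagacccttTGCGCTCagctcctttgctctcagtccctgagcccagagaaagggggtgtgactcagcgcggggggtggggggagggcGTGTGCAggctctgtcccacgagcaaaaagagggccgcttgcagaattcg
Mt1: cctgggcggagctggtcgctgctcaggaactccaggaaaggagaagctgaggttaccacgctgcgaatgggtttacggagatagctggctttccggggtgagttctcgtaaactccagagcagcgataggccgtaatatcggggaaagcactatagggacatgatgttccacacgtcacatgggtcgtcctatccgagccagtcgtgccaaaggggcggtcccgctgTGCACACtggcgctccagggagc

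The Mt2 window held 3 matches, at 223 and 128 bases upstream on the plus strand and at 50 bases on the minus strand, and the Mt1 window held 1, at 23 bases. Of 32851 such windows of 250 bases in the table of RefSeq promoters, 21.4% held at least 1 match and 1.26% at least 3. Only the window of 1 RefSeq start per gene was searched, and the distances are counted from that start. The window of Mt1 ended at 94179088, past the GENCODE gene start of 94179082. That of Mt2 ended at 94172617, short of the GENCODE gene start of 94172664. Matches outside these windows were not counted, so these numbers are no comparison of the genes. A match describes the letters only and is no evidence of binding.

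The libraries held 119459 to 465277 counts, with medians of 955.5 to 3704 counts per cell. After filtering, 899 of 900 cells remained, with 960 counts of Mt1 and 588 of Mt2. Pot1a wt/wt 2 and 3 shared 19 barcodes, which other pairs of libraries did not. These 19 cells held 29 and 27 counts of Mt1 and 32 and 31 of Mt2 in the respective library, and counting them once left the levels in early erythroid-like cells at 1025 CPM for Mt1 and 955 CPM for Mt2.

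Cells were grouped into 9 clusters without Mt1 and Mt2 among the genes used, and clusters were named from marker genes. The early erythroid-like cells (105 cells, cluster 5) carried Car1, Sphk1, Vamp5, Cited4 and Ces2g among their leading genes. This name is weaker than the others, since 10 of the 22 early erythroid markers were highest in the erythroblast-like cells and 9 in the early erythroid-like cells, and Mt2 and Mt1 themselves stood among the leading 10 genes. The erythroblast-like cells (153 cells, cluster 2) were led by globins, Hemgn and Slc4a1. Granulocyte-like cells fell into a cluster led by the granule genes Ctsg, Mpo, Elane and Prtn3 (118 cells, cluster 4, Mpo-led below), one led by Camp, Ngp and Fcnb (168 cells, cluster 1) and one led by Mmp8 and Retnlg (39 cells, cluster 8). B-lineage-like cells fell into a cluster with the surrogate light chain genes Igll1 and Vpreb1 (98 cells, cluster 6) and one led by the light chain gene Igkc (136 cells, cluster 3). Monocyte/macrophage-like cells (65) and mesenchymal/osteolineage-like cells (17) made up the rest. Cluster 4 was mixed, as 10 of 11 T/NK markers, all 7 basophil/mast markers and 7 of 10 megakaryocyte markers were also highest there.

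Both genes stood highest in the early erythroid-like cells. Counts summed over these cells and divided by their total gave 1024 CPM (counts scaled to a library size of 1000000) for Mt1 and 959 CPM for Mt2, from 492 and 461 counts. Over libraries, Mt1 averaged 1111 ± 461 CPM and Mt2 941 ± 368 CPM (SD, n = 9). In Pot1a wt/wt 1 to 5, Mt1 stood at 750, 943, 684, 1270 and 864 CPM, and in Pot1a fl/fl 1 to 4 at 1506, 1156, 2096 and 728 CPM. Mt2 stood at 416, 910, 864, 1295 and 648 CPM in the controls and at 1103, 876, 1650 and 706 CPM in the Pot1a fl/fl libraries. Pot1a fl/fl 3, the shallowest library, was highest for both genes. These cells were 11.7% of the cells kept, and they carried 51.2% of the counts of Mt1 and 78.4% of those of Mt2. When cells were instead assigned one by one from the markers, the early erythroid-like level was 884 CPM for Mt1 and 819 CPM for Mt2.

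**Figure D1:**
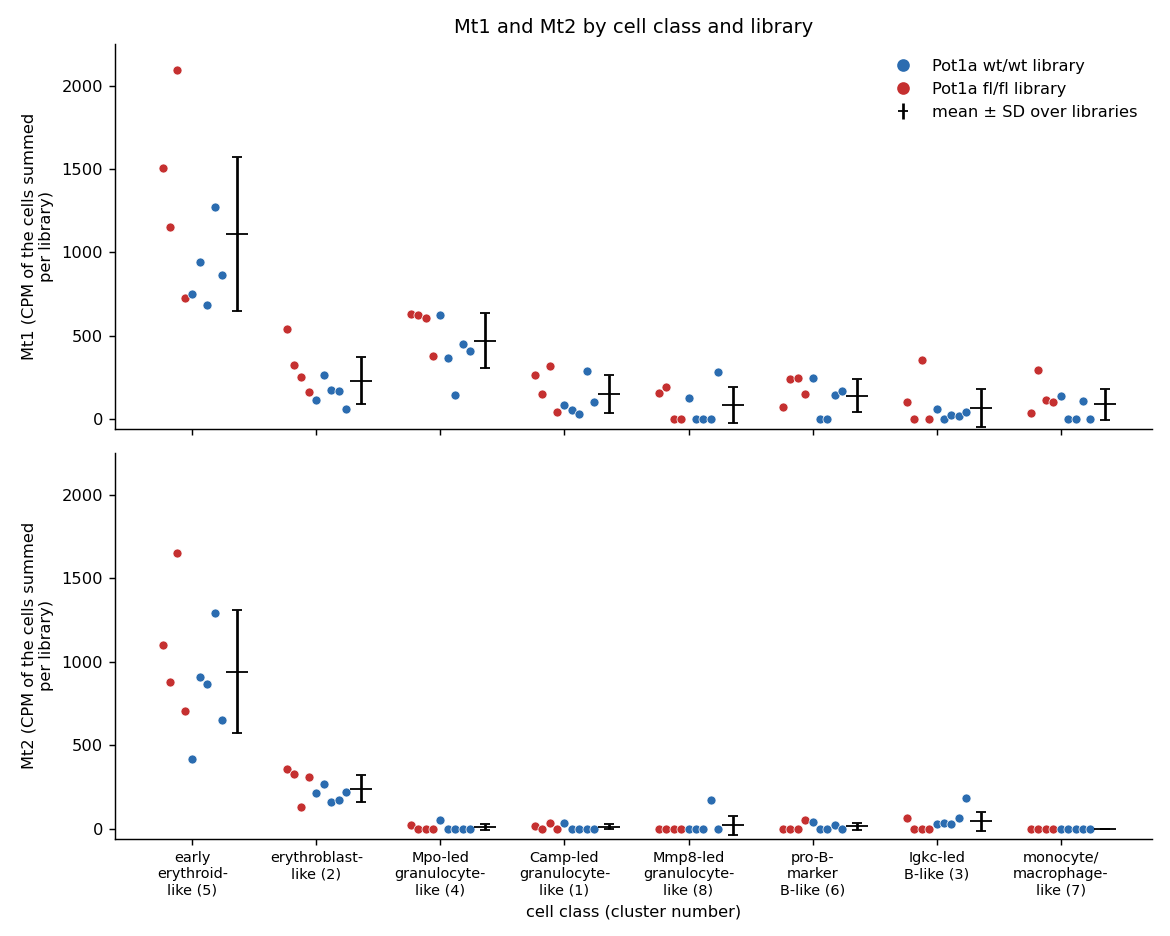
Mt1 (top) and Mt2 (bottom) in CPM of the summed cells of a class, 1 point per library, with the mean and SD over libraries in black; the 17 mesenchymal-like cells are not drawn. In each library the early erythroid-like value was above those of the other classes, and for Mt1 alone the Mpo-led granulocyte-like cells (cluster 4) stood second on average, at 148 to 629 CPM.

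The erythroblast-like cells held less of both genes, 242 CPM of Mt1 and 245 CPM of Mt2. Their Mt1 ranged from 63.3 to 268 CPM in the controls and from 164 to 544 CPM in the Pot1a fl/fl libraries, and their Mt2 from 159 to 268 CPM and from 128 to 358 CPM. Within a library the early erythroid-like cells were higher in 9 of 9 libraries for each gene, with a median ratio of 4.43 for Mt1 and 3.08 for Mt2. Both genes were thus lower in the globin-rich stage in every library.

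The Mpo-led granulocyte-like cells held Mt1 almost without Mt2. Mt1 reached 504 CPM from 227 counts, which was 23.6% of all counts of the gene, whereas Mt2 stood at 8.88 CPM from 4 counts. In Pot1a wt/wt 1 to 5 their Mt1 was 628, 368, 148, 452 and 408 CPM and in Pot1a fl/fl 1 to 4 it was 629, 625, 606 and 377 CPM. Mt2 was listed at 0 in 7 of these 9 libraries, with 1 count in Pot1a wt/wt 1 and 3 counts in Pot1a fl/fl 1. The Mt1 of these cells exceeded that of the other granulocyte-like cells in 9 of 9 libraries (median ratio 4.11) and that of the erythroblast-like cells in 8 of 9 (median ratio 2.29), and it was below that of the early erythroid-like cells in all 9 (median ratio of early erythroid-like to Mpo-led 2.39).

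Within cluster 4 the counts of Mt1 lay with the granule genes. A cut set after the values had been seen divided its cells by their joint counts of Mpo, Elane, Ctsg and Prtn3. The 81 cells with at least 10 such counts held 611 CPM of Mt1, detected in 77.8% of them, and 2 counts of Mt2. The 37 cells with fewer held 46.6 CPM of Mt1, detected in 10.8%. The former were also deeper, with medians of 3506 against 1898 counts per cell, and the part of depth in the shares was not tested.

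In the other lineages both genes were low. Mt1 stood at 149 CPM in the Camp-led and 85.4 CPM in the Mmp8-led granulocyte-like cells, at 136 CPM in cluster 6 and 44.7 CPM in cluster 3 of the B lineage, and at 91.3 CPM in the monocyte/macrophage-like cells. Over libraries these averages had SDs that left neighbours in this order overlapping. The 17 mesenchymal-like cells held 6 counts of Mt1 and 1 of Mt2 in 3 cells, too few for a comparison. Mesenchymal cells that the recombinase targets would fall in this class, but it may be mixed, with Mrc1 and Gpr116 among its leading 10 genes. Mt2 had 0 counts in the monocyte/macrophage-like cells, and 0 of 65 cells allows a share of up to 4.62% of cells with a count, which is no limit on the share of cells that express the gene.

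The proportion of Mt2 among the summed counts of both genes differed between classes. It is compared between classes and is no measure of which gene is expressed more, since reads from the tagged ends were not scaled by length. Mt2 made up 48.4% of these counts in the early erythroid-like cells (95% exact Clopper-Pearson interval 45.2 to 51.6) and 50.3% in the erythroblast-like cells (43.0 to 57.5). In the Mpo-led cells it made up 1.73% (0.474 to 4.37), in the Camp-led cells 6.25% (1.73 to 15.2) and in cluster 6 of the B lineage 13% (5.37 to 24.9). The Igkc-led B-lineage cells (cluster 3), with 13 counts of each gene, stood at 50% (29.9 to 70.1), in the range of the erythroid-like classes. These intervals cover counting error only and not the spread between mice. Globin made up 0.519% of the counts of the Mpo-led cells and 0.768% of those of the early erythroid-like cells, against 13.7% in the erythroblast-like cells. The part of free RNA in these values was not tested.

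Co-detection in single cells was most frequent in the early erythroid-like cells. Among all cells, 108 held counts of both genes, 186 of Mt1 only, 52 of Mt2 only and 553 of neither. The early erythroid-like cells supplied 73 of the 108, which was 69.5% of the class. A further 16 held Mt1 only, 10 held Mt2 only and 6 held neither. Of the erythroblast-like cells 27 (17.6%) held both, 27 held Mt1 only and 24 Mt2 only. In the Mpo-led cells 64 held Mt1 only, 3 (2.54%) held both and 1 held Mt2 only, although their median depth of 2948.5 counts was not far below the 3429 of the early erythroid-like cells. Detected independently, the genes would meet in 70.4 early erythroid-like cells (73 seen), 18 erythroblast-like cells (27 seen) and 2.27 Mpo-led cells (3 seen). The 73 were thus close to what the detection of each gene alone gives. This expectation leaves out that cells of a class differed in depth. The Igkc-led B-lineage cells had 11 cells with Mt1 and 11 with Mt2, and 0 of these 136 cells had both. This allows a share of up to 2.21% of cells with both, and 0.890 such cells would be expected if the genes were detected independently, so nothing can be read from the 0.

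**Figure D2:**
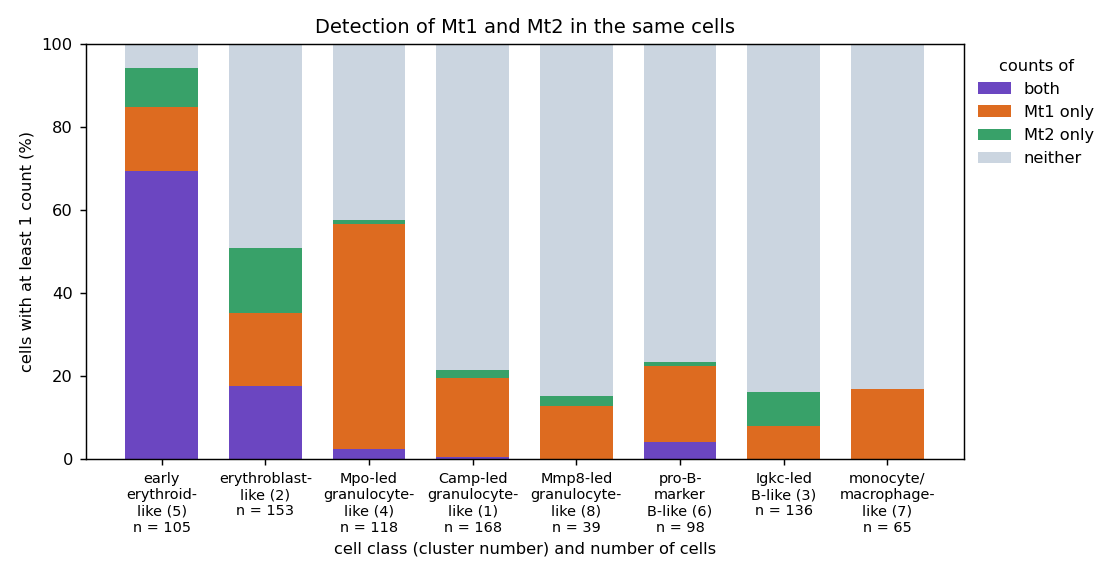
Share of the cells of each class (in %) with at least 1 count of both genes, of Mt1 only, of Mt2 only or of neither; n is the number of cells, pooled over 9 libraries. Both genes were found together in 69.5% of the early erythroid-like cells, while 64 of the 118 Mpo-led cells had Mt1 only.

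The order held at equal depth. When each cell was thinned to 1000 counts, 34.0% of the early erythroid-like cells, 5.08% of the erythroblast-like cells and 0.0873% of the Mpo-led cells were expected to show both genes, leaving out 8, 15 and 9 shallower cells. Thinned to 500 counts the shares were 16.0%, 1.76% and 0.0223%. Mt1, with or without Mt2, was expected in 57.2% of the early erythroid-like, 30.4% of the Mpo-led and 19.6% of the erythroblast-like cells at 1000 counts. Within libraries the share with both genes, unthinned, was higher in the early erythroid-like than in the erythroblast-like cells in 9 of 9.

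A small number of cells carried most of the counts. The 90 cells with most metallothionein counts held 66.5% of Mt1 and 79.6% of Mt2, and 61 of them were early erythroid-like, 13 Mpo-led and 12 erythroblast-like. Of the highest 20 cells, with 17 to 43 counts of both genes together, 19 were early erythroid-like and 1 was Mpo-led; 1 of these 20 was marked as a doublet. A single early erythroid-like cell held a median of 3 counts of Mt1 (range 0 to 25) and 2 of Mt2 (range 0 to 26). Within this class the CPM of both genes had a Spearman correlation of 0.490 over 105 cells, given as a description, since cells of a library share its depth and the counts of each gene were also higher in deeper cells (Spearman 0.534 for Mt1 and 0.617 for Mt2). Removing the doublets left the class at 1055 CPM of Mt1 and 1003 CPM of Mt2.

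Erythroid maturation was read from the globin share of each erythroid-like cell. In the summed cells both genes were lower side by side with rising globin. The bins were set after the values had been seen. From the lowest to the highest bin, 79, 21, 5 and 0 of their cells were early erythroid-like. The step from the lowest bin thus largely repeats the difference between the early erythroid-like and erythroblast-like cells given above. The 81 cells with under 1% globin held 1064 CPM of Mt1 and 1035 CPM of Mt2. The 61 cells with 1 to 5% held 385 and 323 CPM, the 63 cells with 5 to 20% held 313 and 282 CPM, and the 53 cells with 20% or more held 166 and 156 CPM. Globin itself enlarges the total, but without globin in the total the levels in the last bin were 247 and 232 CPM, still below the 1067 and 1039 CPM of the first. The share with both genes was 79.0%, 31.1%, 17.5% and 11.3% from the lowest to the highest bin, and 17.7%, 4.64%, 1.72% and 2.04% after thinning to 500 counts. Mt2 made up 49.3%, 45.6%, 47.4% and 48.5% of the counts of both genes. The largest step lay between the lowest bin and the next, while the 3 upper bins overlapped within 1 SD over libraries. The order of these upper bins differed between libraries, and in some a gene rose with globin.

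**Figure D3:**
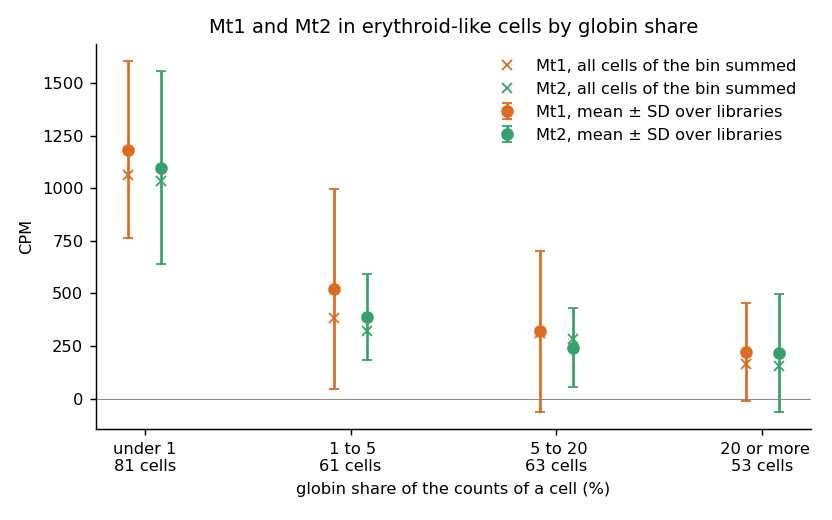
Mt1 and Mt2 (CPM) in erythroid-like cells binned by the globin share of their counts; filled points are means ± SD over the libraries with cells in the bin (8 in the lowest bin, 9 in the others), crosses are the cells of a bin summed. Both genes stood above 1000 CPM under 1% globin and between 156 and 385 CPM in the summed cells of the upper bins.

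Genes with the most similar pattern were found by Pearson correlation of log2(CPM + 10) with the mean of Mt1 and Mt2 over the 9 clusters, among 5892 genes with at least 50 counts. The 10 highest were Pklr (r = 0.953), Sh2d4a (0.945), Sphk1 (0.942), Wdr60 (0.909), Slc25a21 (0.904), Tarsl2 (0.902), Car1 (0.902), Tmem56 (0.900), 2510003D18Rik (0.900) and Abcb4 (0.893). Pklr encodes the pyruvate kinase of red cells and liver, Sphk1 a sphingosine kinase and Car1 a carbonic anhydrase abundant in red cells. The members differed from these in how far they fell towards the erythroblast-like cells. Car1 stood at 705 CPM in the early erythroid-like and 626 CPM in the erythroblast-like cells, and Abcb4 at 429 and 411 CPM, whereas Pklr stood at 104 and 32.8 CPM and Sphk1 at 129 and 45.4 CPM, closer to Mt2. Mt1 and Mt2 correlated with each other at 0.596 only, and Mt1 ranked 345th among the genes most like Mt2. With 9 clusters from the same libraries, these values are a description.

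Genes of metal handling, oxidative stress and the glucocorticoid response were placed by the class where their CPM was highest. The share of all genes highest in each class was not counted, so the counts below only describe these lists. Of the 28 genes of zinc and copper handling all had a row, and 18 had at least 20 counts. Classes were ranked without the 17 mesenchymal-like cells, whose summed counts were too few, although several list genes had higher CPM there (Ccs, Nfe2l2 and Sgk1 among them). Of these 18, Ccs, the copper chaperone of superoxide dismutase, was highest in the early erythroid-like cells, 5 were highest in the erythroblast-like cells and 12 in the other ranked classes. The 3 with most counts were Cox17, a copper chaperone of cytochrome oxidase (709 CPM in early erythroid-like, 711 CPM in erythroblast-like and 335 CPM in Mpo-led cells), Commd1 (239, 134 and 229 CPM) and Atox1, a copper chaperone (204, 156 and 206 CPM). Mtf1, the zinc sensor, stood at 43.7, 45.4 and 53.3 CPM in the same order, at 71.7 CPM in the other granulocyte-like cells, at 39.1 CPM in the monocyte/macrophage-like cells and at 18.9 CPM in the B-lineage-like cells. Of the oxidative stress genes, 14 of 18 had at least 20 counts and 2, Sod2 and Nfe2l2, were highest in the early erythroid-like cells among the ranked classes. For Nfe2l2 the margin was small, at 139.4 CPM against 139.0 CPM in the other granulocyte-like cells. Gpx1 and Prdx2, which remove peroxides, were highest in the erythroblast-like cells at 3224 and 2682 CPM, against 1280 and 1173 CPM in the early erythroid-like cells, and Sod1 stood at 903 and 1167 CPM. Of the glucocorticoid response genes, 9 of 10 had at least 20 counts and 7 were highest in the monocyte/macrophage-like cells among the ranked classes. The receptor Nr3c1 stood at 104 CPM in the early erythroid-like cells, its target Fkbp5 at 52.0 CPM and Zfp36 at 10.4 CPM.

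The genotypes were then compared, to ask whether metallothioneins in marrow cells differ when mesenchymal cells lack Pot1a. In whole marrow Mt1 stood at 231, 378, 296, 460 and 265 CPM in Pot1a wt/wt 1 to 5 and at 486, 388, 645 and 219 CPM in Pot1a fl/fl 1 to 4. Mt2 stood at 107, 320, 339, 359 and 181 CPM in the controls and at 181, 103, 343 and 133 CPM in the Pot1a fl/fl libraries. The genotypes overlapped for both genes, and the lowest library for Mt1 was a Pot1a fl/fl library. By edgeR's quasi-likelihood test the log2 fold change of Pot1a fl/fl over controls was 0.47 ± 0.29 (SE) for Mt1 (unadjusted p = 0.120, adjusted p = 0.725) and -0.48 ± 0.35 for Mt2 (unadjusted p = 0.189, adjusted p = 0.778). Neither passed the threshold, and among all 4559 genes tested 3 did (0.0658%). Without Pot1a fl/fl 3 the log2 fold change of Mt1 was 0.19, and without Pot1a fl/fl 4 it was 0.73.

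**Figure D4:**
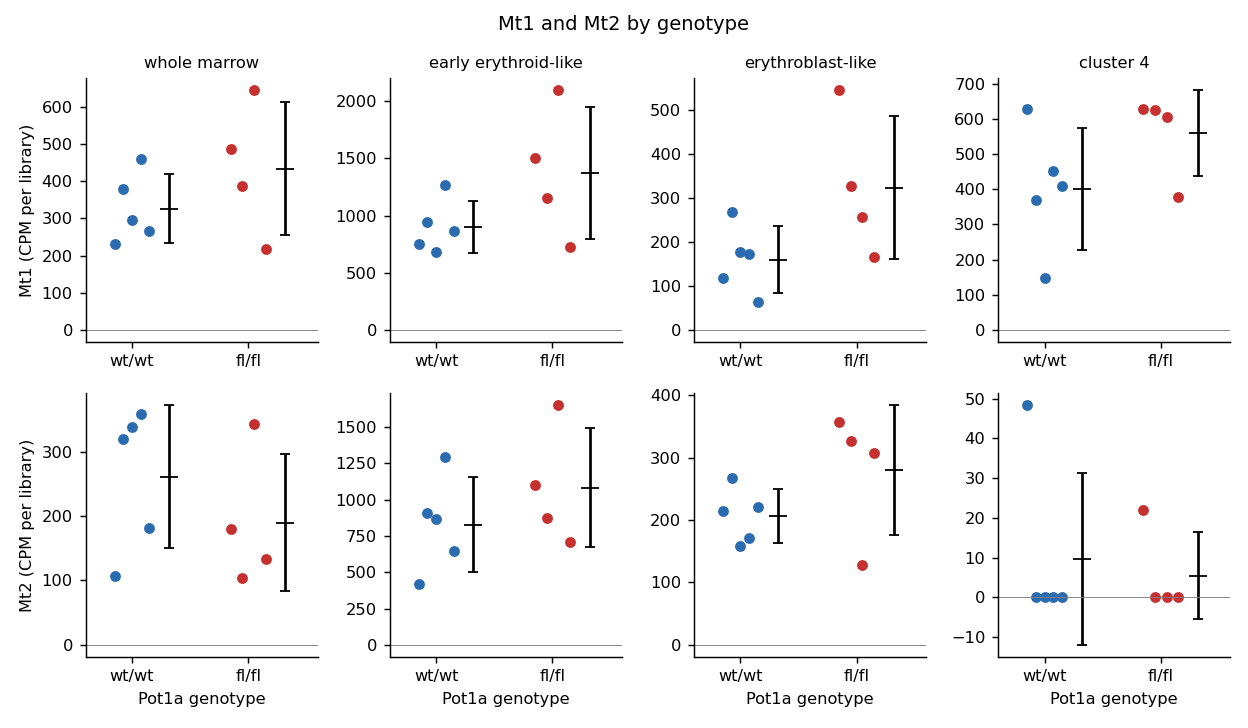
Mt1 (top) and Mt2 (bottom) in CPM by genotype in whole marrow, early erythroid-like cells, erythroblast-like cells and cluster 4 (the Mpo-led cells), 1 point per library, with the mean ± SD in black; each panel has its own scale. The genotypes overlapped in every panel, for example at 684 to 1270 CPM against 728 to 2096 CPM for Mt1 in early erythroid-like cells.

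Mt1 and Mt2 drew on different classes, and the libraries varied in the size of these classes. Early erythroid-like cells made up 7 to 23% of the cells of a control library and 6 to 15% of those of a Pot1a fl/fl library, erythroblast-like cells 18 to 22.2% and 6 to 18%, and Mpo-led cells 6 to 15% and 12 to 21%. These ranges overlap or touch, and the class sizes were not tested here. In the controls the early erythroid-like cells held 308 of 464 counts of Mt1 (66.4%) and the Mpo-led cells 61 (13.1%). In the Pot1a fl/fl libraries they held 184 of 496 (37.1%) and 166 (33.5%), 86 of the latter in Pot1a fl/fl 1. Single libraries crossed, since the early erythroid-like share of Mt1 was 31.0% in Pot1a wt/wt 1 and 61.0% in Pot1a fl/fl 3, and the Mpo-led share was 26.3% in Pot1a wt/wt 5 and 13% in Pot1a fl/fl 3. For Mt2 the early erythroid-like cells held 315 of 383 counts (82.2%) in the controls and 146 of 205 (71.2%) in the Pot1a fl/fl libraries, where the erythroblast-like cells held 22.4%. Whole-marrow levels therefore mix the number of cells of a class and the level in its cells, and fewer cells of a class cannot be told apart there from less RNA per cell.

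**Figure D5:**
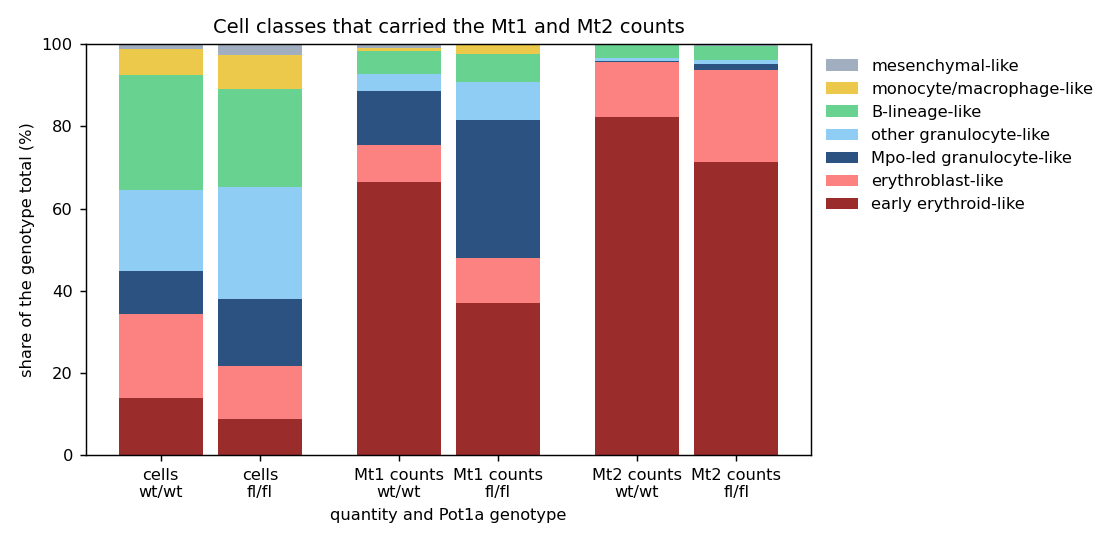
Share (in %) of the kept cells, of the Mt1 counts and of the Mt2 counts that fell in each cell class, by Pot1a genotype, pooled over 5 wt/wt and 4 fl/fl libraries. The Mpo-led granulocyte-like cells held 13.1% of Mt1 counts in the wt/wt and 33.5% in the fl/fl libraries, and erythroid-like classes held most Mt2 counts in both.

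Within classes, the fitted changes of Mt1 were positive and none passed the threshold. In early erythroid-like cells, where libraries with at least 5 cells were used because 1 Pot1a fl/fl library alone had 10, the log2 fold change was 0.61 ± 0.29 for Mt1 (edgeR unadjusted p = 0.0502, adjusted p = 0.795) and 0.35 ± 0.30 for Mt2 (unadjusted p = 0.259, adjusted p = 0.912). Without Pot1a fl/fl 3 the values were 0.38 and 0.13, and with DESeq2 size factors 0.37 and 0.08, while for Mt2 they reached 0.57 without Pot1a wt/wt 4 and 0.55 without Pot1a fl/fl 4. Of 918 genes tested there edgeR called 0 (0%), with 56 at an unadjusted p under 0.05, and DESeq2 called 3. In the erythroblast-like cells of 5 control and 3 Pot1a fl/fl libraries, Pot1a fl/fl 2 having too few cells, it was 1.02 ± 0.43 for Mt1 (edgeR unadjusted p = 0.0309, adjusted p = 0.998) and 0.46 ± 0.37 for Mt2 (adjusted p = 0.998). edgeR called 0 of 1022 genes there (0%), with 26 at an unadjusted p under 0.05 and 0 called by DESeq2. Pot1a fl/fl 1 held 38 of the 50 counts of Mt1 in the Pot1a fl/fl libraries fitted, and without it the value was 0.25 for Mt1 and 0.25 for Mt2.

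With both erythroid stages together the log2 fold change was 0.70 ± 0.31 for Mt1 (edgeR unadjusted p = 0.0392, adjusted p = 0.99996) and 0.34 ± 0.28 for Mt2 (adjusted p = 0.99996), with 0 of 1784 genes called (0%), 56 at an unadjusted p under 0.05 and 0 called by DESeq2. Without Pot1a fl/fl 3 these changes were 0.43 and 0.11, and without Pot1a wt/wt 1 that of Mt2 was 0.21 and without Pot1a fl/fl 4 it was 0.51. In granulocyte-like cells Mt1 had a log2 fold change of 0.64 ± 0.33 (edgeR unadjusted p = 0.0630, adjusted p = 0.946; 1 of 1397 genes called, 0.0716%), and without Pot1a wt/wt 3 it was 0.41. In the Mpo-led cells of 3 control and 4 Pot1a fl/fl libraries it was 0.40 ± 0.32 (edgeR unadjusted p = 0.223, adjusted p = 0.993; 1 of 896 genes called, 0.112%). Mt2 did not reach the count filter in either, nor did either gene in B-lineage-like cells (1 of 1504 genes called, 0.0665%), and too few libraries had 10 monocyte/macrophage-like cells for a fit. In the B-lineage-like cells the share with Mt1, singled out after its values were seen and therefore not tested, was 12.9, 0, 3.70, 7.41 and 6.67% in the 5 control libraries in order, against 30.4, 25, 25 and 22.2% in the 4 Pot1a fl/fl libraries. The genotypes did not overlap in this share, which rests on 0 to 14 counts of Mt1 in a library. How many other genes separate the libraries likewise was not counted, so no genotype difference is read from the share. The CPM of Mt1 in these cells did overlap, at 0 to 171 in the controls and 89.3 to 291 in the Pot1a fl/fl libraries, and median depth ran from 938 to 2554 and from 943 to 3908 counts per cell. Whether the change of Mt2 in whole marrow differed from that within the erythroid-like cells was not tested.

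The share of cells with both genes overlapped between genotypes in each class compared. Among all cells it averaged 12.6 ± 6.11% in the controls (SD, n = 5) and 11.2 ± 5.56% in the Pot1a fl/fl libraries (SD, n = 4), a difference of -1.39 percentage points (95% interval -11.0 to 9.0; two-sided exact permutation p = 0.738, adjusted p = 0.738). Among early erythroid-like cells it averaged 64.3 ± 23.1% and 75 ± 21.5%, a difference of 10.7 points (interval -27.2 to 50; exact permutation p = 0.476, adjusted p = 0.635). Among erythroblast-like cells it averaged 12 ± 5.59% and 27.6 ± 21.7%, a difference of 15.6 points (interval -4.75 to 40.5; exact permutation p = 0.167, adjusted p = 0.556). Over all erythroid-like cells it averaged 33.5 ± 14.9% and 45.6 ± 14.4%, a difference of 12.1 points (interval -10.2 to 37.0; exact permutation p = 0.278, adjusted p = 0.556). Leaving out 1 library at a time moved the early erythroid-like difference between 2.39 (without Pot1a fl/fl 1) and 19.1 points (without Pot1a fl/fl 2), with 5.36 without Pot1a wt/wt 1, 4.65 without Pot1a wt/wt 5 and 18.0 without Pot1a wt/wt 4. Without Pot1a fl/fl 1 the erythroblast-like difference was 6.29 and that of all erythroid-like cells 5.12 points, the latter 7.22 without Pot1a wt/wt 1. Thinned to 500 counts, where shares are lower in both genotypes, these differences were 2.02 and 4.21 points. Adjustment was over these 4 shares, the lowest adjusted p over their alternatives was 0.127 (exact permutation, erythroblast-like cells thinned to 500 counts), and the smallest p that 126 splits allow is 0.0079. Among the Pot1a fl/fl libraries, Pot1a fl/fl 1, the deepest, was highest for erythroblast-like cells, where 55.6% of 18 cells held both genes against 7.14 to 33.3% in the other 3.

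The fixed lists did not pass the test between genotypes in whole marrow. Of the 28 zinc and copper genes 6 were tested, 0 were called, and the median log2 fold change was 0.16 (4 positive, 2 negative), with Mtf1 at 0.31 ± 0.35 (edgeR adjusted p = 0.880) and Cox17 at -0.22 ± 0.25 (edgeR adjusted p = 0.885). Of the 18 oxidative stress genes 13 were tested and 0 called, with a median of -0.31 (5 positive, 8 negative). At an unadjusted p under 0.05 there were 4 of these 13, against 365 of all 4559 genes, Gstm1 and Gsr with positive and Gclm and Prdx2 with negative values, and Gstm1 is also a marker of the granulocyte-like cells. Of the 10 glucocorticoid response genes 5 were tested and 0 called, with a median of -0.28 (2 positive, 3 negative). The median over all genes tested was -0.0013.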

How the data were processed

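The deposited values were whole-number counts, with 1 row per gene and 1 column per cell barcode. Per the labels, the authors sequenced the Drop-seq libraries on a NextSeq 500, aligned reads to mm10 (STAR, in the submitters' processing notes) and counted them per gene and cell by the Drop-seq software. The annotation is not given in the sources used here, nor are tool versions and how the 100 barcodes were chosen. The labels call the values read counts and do not say whether reads of 1 molecule (UMI) were collapsed. They were treated as UMIs, so if they are reads, binomial intervals are too narrow and thinned shares inexact. Cells with at least 200 counts and at most 25% mitochondrial counts were kept. Scrublet (scanpy 1.11.5) marked 39 doublets, which stayed in. Libraries were joined by anchor integration in Seurat 5.3.0 (R 4.3.3; 2000 genes, 20 components) and clustered at resolution 1. A cluster took the class with most markers, at least 3, among its 50 leading genes. Genotypes were compared on counts summed per library with edgeR 4.0.16 (TMM scaling, the filterByExpr filter, the quasi-likelihood test and Benjamini-Hochberg adjustment, threshold 0.05), in libraries with at least 10 cells of a class, or 5 for early erythroid-like cells, and 3 libraries per group; the code was tested on simulated data. DESeq2 1.42.0 was an alternative. Shares were compared by exact permutation over libraries (scipy 1.17.1), and intervals hold the shifts that this test kept. Thinned shares are hypergeometric expectations. Named genes were the members, the 10 most like them, and 3 per list with most counts. The members and lists were chosen with earlier results of these data known. The number of deposited sample columns left unused was 0.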

Additional observations from a re-analysis of the deposited data

Results flagged for a closer look

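Of 35 groups of 4 or 5 libraries examined, 6 had a library set apart from the others by Dixon's criterion. Chance meets it in about 1 group in 20 for continuous values, but in 5 of the 6 the other libraries are at 0, so that any count in 1 library meets it, and the Mpo-led cells are also counted among the granulocyte-like cells. Mt1 in the Mpo-led cells of Pot1a fl/fl 4 was low at 377 CPM, with the next library at 606 CPM. Mt2 in the Mpo-led cells was 48.3 CPM in Pot1a wt/wt 1, from 1 count, and 22.0 CPM in Pot1a fl/fl 1, from 3 counts, with the other libraries of each genotype at 0. The share of Mpo-led cells with both genes was 16.7% in Pot1a fl/fl 1, from 3 of 18 cells, and 0 in the other Pot1a fl/fl libraries. The share of granulocyte-like cells with both genes was 6.82% in Pot1a fl/fl 1 and 2.78% in Pot1a wt/wt 1, with the other libraries of each genotype at 0.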

How the results depend on the processing

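Over 434 alternative values, 399 were kept, 32 counts of genes moved and 3 differences turned. A fold change or share was kept if its direction and its side of the threshold held. A count of genes was kept if it stayed close to the reported one. The 399 also include class levels in CPM, which have no threshold. Mt1 and Mt2 passed the threshold under none of the alternatives and their fitted changes kept their signs, from 0.19 to 0.73 for Mt1 and from -0.88 to -0.29 for Mt2 in whole marrow. The difference in the share of all cells with both genes was 0.268 points after thinning to 500 counts, and leaving out 1 library at a time gave -3.97 to 0.364, reaching 0 without Pot1a wt/wt 4 and 0.364 without Pot1a fl/fl 2. Counts of genes called moved most without the filter on low counts, to 69 in whole marrow (3 as reported), 12 in erythroid-like and 12 in early erythroid-like cells, 9 in erythroblast-like cells, 8 in granulocyte-like cells and 8 in the Mpo-led cells. DESeq2 called 6 in whole marrow, 3 in early erythroid-like and 0 in the Mpo-led cells. Taking Pot1a wt/wt 2 and 3 as 1 library gave 1 in whole marrow, clustering without integration gave 1 in early erythroid-like cells, and marker assignment and resolution 2 gave 0 each in granulocyte-like cells. In the Mpo-led cells DESeq2 size factors gave 2, sex as a covariate 2 and removal of doublets 0. Leaving out 1 library at a time gave 1 to 3 in whole marrow, 0 to 1 in erythroid-like, 0 to 1 in early erythroid-like, 1 to 2 in granulocyte-like and 0 to 4 in the Mpo-led cells, with 4 without Pot1a fl/fl 1. The cause of these moves was not tested.

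Replicate numbers did not pair the libraries (correlations of deviations -0.0135, -0.0162, -0.161 and 0.0104 for numbers 1 to 4). A fit with the number as a block gave 1 gene called in whole marrow and 6 in the Mpo-led cells, with Mt1 at 0.37 and Mt2 at -0.51 in whole marrow, and no number correlated best with itself. The genotype fit of cluster 4 was not run without integration or at resolution 2, since too few libraries had enough of its cells. Depth limits the low classes, where a library held 0 to 4 counts of Mt2.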
